A study of Mus musculus with 6 samples.

Results

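The genes described here are 8 genes of simple epithelia among 18193 named genes, measured by 11 of the 45101 probe sets of the array: the simple keratins Krt8, Krt18, Krt19 and Krt7 (6 probe sets) and the epithelial junction and adhesion genes Cdh1, Epcam, Cldn6 and Cldn7 (5 probe sets). Every probe set annotated to one of these genes alone was taken. The genes were chosen by name and by their signals on these same 6 arrays, chiefly how they differ between replicate experiments, so their levels by experiment are given as a description without a test. All 11 probe sets passed the filter on dim probe sets.

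Embryoid bodies are aggregates in which embryonic stem cells differentiate. All samples came from 1 mouse embryonic stem cell line, Hoxb4i, whose integrated tet-on cassette expresses HOXB4, a homeodomain transcription factor, when doxycycline is given. The sample titles name replicas A, B and C, and each letter is taken here as an experiment. Each experiment set embryoid bodies that received doxycycline at 2 µg/ml on day 4 and were lysed 48 hours later beside uninduced ones. This makes 3 arrays per group. All cultures were started with 3500 cells/ml and ended on day 6. Every sample carries the cassette, so HOXB4 and doxycycline itself cannot be told apart. An embryoid body is a mixture of cell types and total RNA was pooled over it, so fewer epithelial cells and less RNA per cell cannot be told apart in any value below.

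Keratin filaments are built from pairs of a type II keratin (Krt8, Krt7) and a type I keratin (Krt18, Krt19), and Krt8 with Krt18 is the first pair made in the mouse embryo, in trophectoderm and later in endoderm. The filaments are anchored at desmosomes. Neighbouring epithelial cells are held together at adherens junctions by E-cadherin, the product of Cdh1, and sealed at tight junctions by claudins such as those of Cldn6 and Cldn7, while Epcam encodes a surface adhesion protein of epithelial and pluripotent cells. In embryoid bodies an outer layer of endoderm forms a simple epithelium, and undifferentiated stem cells and early ectoderm also carry E-cadherin and EpCAM.

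On the RefSeq map Krt8, Krt18 and Krt7 lie on chromosome 15, and 2 genes separate Krt8 from Krt18. Krt19 and Cldn7 lie on chromosome 11, Epcam and Cldn6 on chromosome 17 and Cdh1 on chromosome 8. The sequences below are the 250 bases before the start of transcription of 2 keratin and 2 junction genes, shown because the keratin pair and the junction pair each move together across the arrays (RefSeq, build GRCm38.p6, written 5′ to 3′ on the strand of the gene, with matches to an E-box or a GATA motif in capitals). Krt8 is read from chr15:102004343-102004592 on the minus strand, and the other sequences are on the plus strand, Krt18 from chr15:102027966-102028215, Epcam from chr17:87635729-87635978 and Cldn6 from chr17:23679115-23679364.
Krt8: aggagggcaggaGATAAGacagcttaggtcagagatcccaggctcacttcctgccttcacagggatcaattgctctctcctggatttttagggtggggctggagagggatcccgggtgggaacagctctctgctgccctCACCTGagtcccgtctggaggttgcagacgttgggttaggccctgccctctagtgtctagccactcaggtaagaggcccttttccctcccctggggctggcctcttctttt
Krt18: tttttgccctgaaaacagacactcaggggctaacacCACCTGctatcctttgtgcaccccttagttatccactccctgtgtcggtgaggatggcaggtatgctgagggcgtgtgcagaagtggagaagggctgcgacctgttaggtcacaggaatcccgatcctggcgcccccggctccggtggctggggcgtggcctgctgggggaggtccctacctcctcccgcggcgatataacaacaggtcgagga
Epcam: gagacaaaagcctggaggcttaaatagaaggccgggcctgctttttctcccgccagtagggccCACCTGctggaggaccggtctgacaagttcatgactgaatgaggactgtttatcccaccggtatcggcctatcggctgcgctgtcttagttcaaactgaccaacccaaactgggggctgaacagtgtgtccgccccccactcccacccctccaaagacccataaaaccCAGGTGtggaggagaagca
Cldn6: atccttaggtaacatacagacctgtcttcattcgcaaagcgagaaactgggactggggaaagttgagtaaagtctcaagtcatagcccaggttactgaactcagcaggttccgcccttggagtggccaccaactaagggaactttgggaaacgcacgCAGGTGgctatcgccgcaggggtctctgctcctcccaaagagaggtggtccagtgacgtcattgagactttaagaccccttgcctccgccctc

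Motifs were searched on both strands, and none overlaps another in these windows. The first was the E-box CACCTG, through which Snail and Zeb proteins are known to bind the Cdh1 promoter. At least 1 match stood in the window of each of the 6 members found in the table, Krt8, Krt18, Krt7, Epcam, Cldn6 and Cldn7, the last in 1 of its 2 listed promoters. Of all 32851 windows of this length, 17.2% held a match. The match lay 111 bases before the start in Krt8, 214 in Krt18 and 93 in Cldn6, and Epcam had matches at 187 and 19. The GATA motif GATAAG was matched in Krt8, 238 bases before the start, and in 6.55% of all windows. The motif TATAAA was matched in 0 of the members' windows and in 12.4% of all windows. The motifs were chosen after the signals had been seen, and a match describes letters only. Krt19 and Cdh1 are named without a promoter.

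The arrays had median signals of 92 to 108.6 after the authors' scaling. The uninduced array of A stood apart in RNA quality, with an Actb 3′/5′ ratio of 2.88, against 1.26 to 1.48 elsewhere. The members' differences of A from B and C are therefore also given without it, and whether it has a part in other values was not tested. Hoxb4 itself had 116, 129.5 and 175.5 with doxycycline in A, B and C, against 46.5, 119.8 and 113.5 without, on 1 of its probe sets, which is 0.57 log2 units higher (95% interval -0.37 to 1.50, limma, adjusted p = 1.00). A second probe set had 136, 261 and 151 with doxycycline, against 78.2, 253 and 27.6 without, 0.86 log2 units higher (95% interval -0.60 to 2.33, limma, adjusted p = 1.00). It was not tested which of them can read RNA made from the cassette.

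Krt8, Krt18 and Krt19 shared 1 pattern: in both groups their signal was highest in experiment B, lower in A and lowest in C. Krt8, the type II partner, had 8765, 18719.9 and 1927 with doxycycline in A, B and C, against 9105, 19835 and 1776 without (its brightest probe set). The arrays of B lay above those of A, and those of A above those of C, with no overlap between experiments. As log2 differences of the experiments' means, Krt8 stood at -1.11 for A minus B, 2.26 for A minus C and 3.37 for B minus C, the last a signal ratio of 10.4. The other 2 probe sets of Krt8, both of the kind that can cross-react with similar transcripts, gave B minus C differences of 3.58 and 3.28. The 3 Krt8 probe sets correlated with one another at 0.997 to 0.999 over the 6 arrays.

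Krt18, the type I partner of Krt8, had 8916, 17518 and 2234 with doxycycline in A, B and C, against 11137, 17433 and 2003 without. Its log2 differences were -0.81 for A minus B, 2.23 for A minus C and 3.04 for B minus C. The partners thus differed between experiments by like amounts, with all arrays in the same order of experiments. Krt19, the type I keratin that pairs with Krt8 in many ducts and embryonic epithelia, had 1304, 2179.8 and 289.9 with doxycycline in A, B and C, against 1035, 2898 and 261 without. It stood at -1.10 for A minus B, 2.01 for A minus C and 3.11 for B minus C, again with no overlap between experiments. Over the 6 arrays the 3 pairwise correlations among Krt8, Krt18 and Krt19 were 0.981 to 0.996. These points are 3 experiments of 2 arrays each and share their experiment, so the correlations mainly restate the order B, A, C.

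Krt7, the other type II keratin, did not have this pattern. It had 141, 141 and 119.5 with doxycycline in A, B and C, against 197, 43.6 and 136 without. The lowest value was on the uninduced array of B, the experiment where the other keratins were highest, and the arrays of B and C overlapped. Its log2 differences between experiments were 0.90 for A minus B, 0.34 for A minus C and -0.55 for B minus C. Its correlations with the other 7 members lay between -0.394 and 0.361. With Krt7 included the keratin differences were smaller: the mean of the 4 keratins stood at 2.24 for B minus C, and that of Krt8, Krt18 and Krt19, chosen after the values were seen, at 3.17.

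**Figure D1:**
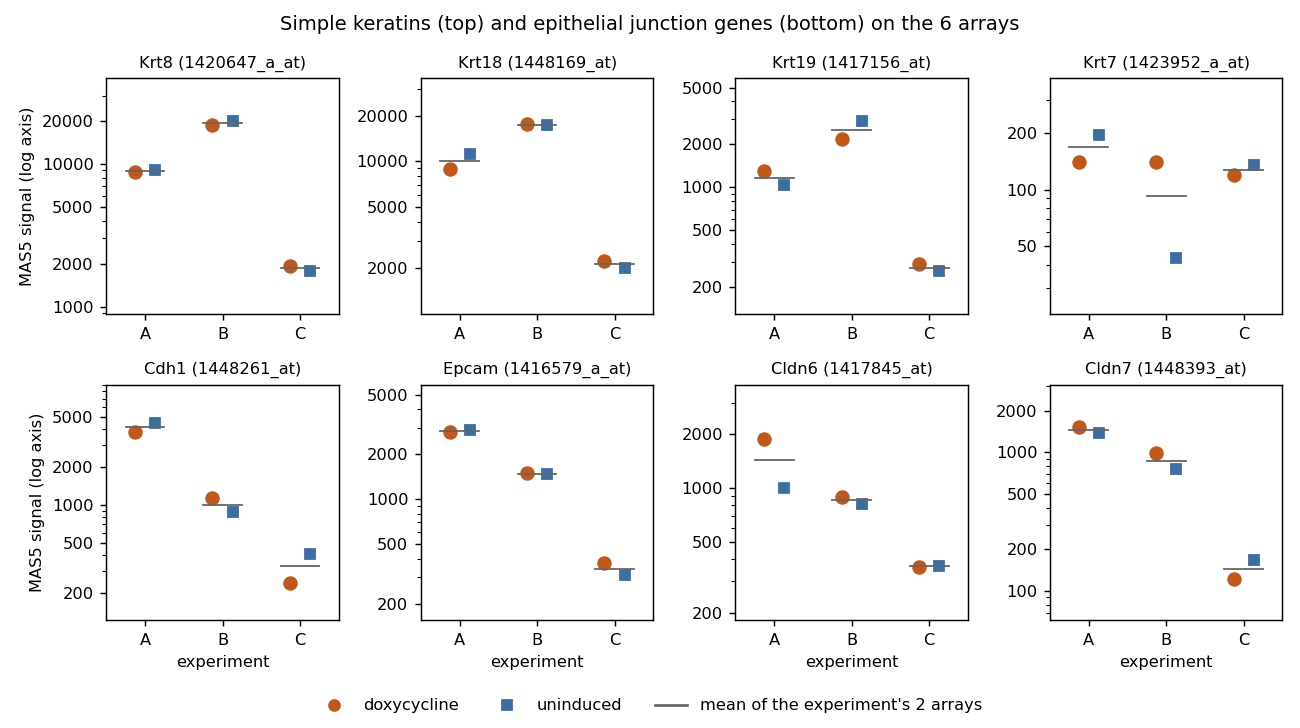
Deposited MAS5 signal (log axis, arbitrary units) of the 8 genes on the 6 arrays, 1 panel per gene with its brightest probe set, by experiment on the x axis; circles are doxycycline arrays, squares uninduced arrays and bars the mean of the experiment's 2 arrays. Krt8, Krt18 and Krt19 are highest in B, the 4 junction genes are highest in A, and all 7 are lowest in C, while Krt7 has signals of 43.6 to 197 with no such order.

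The junction genes were arranged differently: all 4 were highest in experiment A, lower in B and lowest in C. Cdh1, which encodes E-cadherin, had 3818, 1134 and 241 with doxycycline in A, B and C, against 4513, 879 and 409.7 without. Its log2 differences were 2.04 for A minus B, 3.64 for A minus C and 1.61 for B minus C, and the A over C signal ratio of 12.8 was the largest of the 8 genes between these experiments. Epcam had 2805, 1487 and 372 with doxycycline in A, B and C, against 2907, 1472 and 309.5 without, on its brighter probe set. It stood at 0.94 for A minus B, 3.00 for A minus C and 2.06 for B minus C. The experiments did not overlap for either gene.

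Cldn7 had 1532, 981 and 123 with doxycycline in A, B and C, against 1377, 756 and 166.5 without. Its log2 differences were 0.74 for A minus B, 3.18 for A minus C and 2.44 for B minus C. Cldn6, a claudin of embryonic epithelia and stem cells, had 1891, 896 and 363 with doxycycline in A, B and C, against 998, 810.4 and 368 without. In A its uninduced array lay closer to the arrays of B than to the induced array of A, so that its A minus B difference was 0.68 with both arrays of A and 1.13 with the induced array alone. Its A minus C difference was 1.86 and its B minus C difference 1.18. Epcam's dimmer probe set gave 344, 186.5 and 219 with doxycycline in A, B and C, against 456, 104 and 95.4 without; it was highest in A as well, but its B minus C difference was -0.06 and it correlated with the brighter one at 0.637.

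Over the 6 arrays the junction genes correlated with one another at 0.899 to 0.983, and with Krt8, Krt18 and Krt19 at 0.557 to 0.871. As group means, keratins and junction genes were both lowest in C but traded places between A and B. Averaged over the genes of each group, the log2 difference A minus B was -0.53 for the 4 keratins and 1.10 for the 4 junction genes, a gap of -1.63 between the groups. The differences A minus C were 1.71 and 2.92, and the differences B minus C 2.24 and 1.82. With Krt7 left out of the keratin mean, A minus B was -1.01, A minus C 2.16 and B minus C 3.17. Without the uninduced array of A, the A minus B difference was -0.59 for the keratins and 1.19 for the junction genes, and the A minus C difference 1.65 and 3.02. For the single genes that setting gave A minus B differences of -1.13 for Krt8, -0.97 for Krt18, -0.94 for Krt19 and 0.68 for Krt7, and of 1.92 for Cdh1, 0.91 for Epcam, 1.13 for Cldn6 and 0.82 for Cldn7. Its A minus C differences were 2.23 for Krt8, 2.07 for Krt18, 2.17 for Krt19 and 0.13 for Krt7, and 3.52 for Cdh1, 2.98 for Epcam, 2.31 for Cldn6 and 3.26 for Cldn7. No gene changed sign. The deposited arrays were scaled to a common mean, and over all 27022 tested probe sets the median difference was 0.08 for A minus B, 0.01 for A minus C and -0.07 for B minus C.

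**Figure D2:**
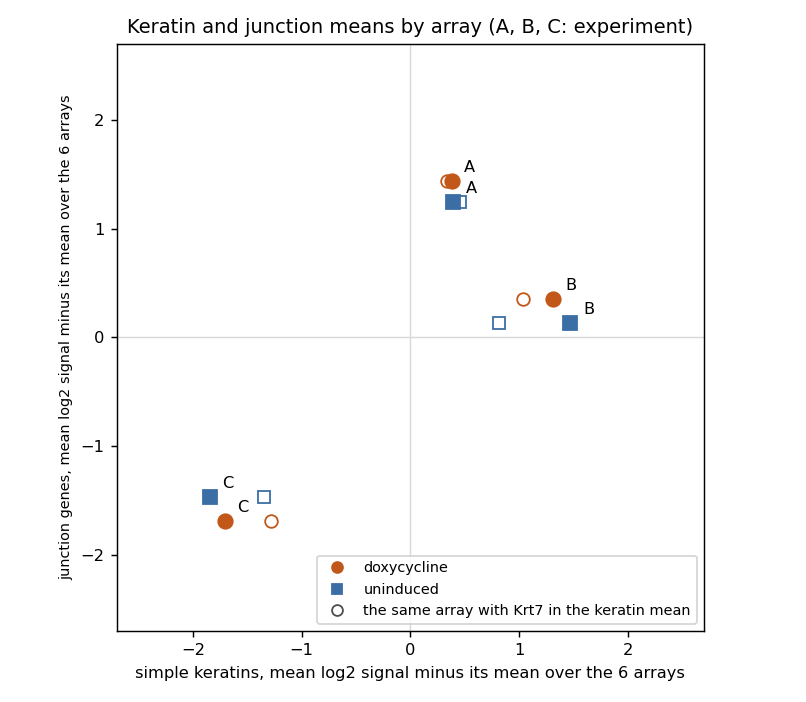
Mean log2 signal of the simple keratins (x axis; filled symbols Krt8, Krt18 and Krt19, open symbols with Krt7 added) against that of the 4 junction genes (y axis), each minus its mean over the 6 arrays, with 1 point per array. The arrays of A are highest for the junction genes, those of B highest for the keratins and those of C lowest for both, and the arrays of an experiment lie close together whichever had doxycycline.

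Shares over the whole array are given as background to these orders, and nothing is read from them for the members, whose choice used the same comparison. Both arrays of A lay below both of B by a mean of over 1 log2 unit on 4 of the 6 keratin probe sets (Krt8 with 3 and Krt19) and 0 of the 5 junction probe sets, beside 4.88% of all tested probe sets. Both arrays of A lay above both of B by this margin on 0 keratin and 2 junction probe sets (Cdh1 and the dimmer one of Epcam), beside 6.35%. For A above C the counts were 5 of 6 and 5 of 5, beside 7.64%, and for B above C 5 of 6 and 4 of 5, beside 6.84%. No member lay below C in this way in A or in B, beside 6.38% and 6.97% of all tested probe sets. The full order B above A above C, with no overlap, held for 3 of 4 keratins and 0 of 4 junction genes, beside 5.53% of 12452 tested genes, and the order A above B above C for 0 keratins and 4 of 4 junction genes, beside 4.13%.

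The study's own comparison asked what doxycycline does to expression, and none of the 8 genes passed the test made of it here. With limma 0 of the 11 member probe sets had an adjusted p under 0.05, beside 0% of all 27022 tested probe sets. At an unadjusted p under 0.05 there were 138 probe sets of the 27022. With the experiment letter as a replicate block the adjusted count was again 0, with 1065 at an unadjusted p under 0.05. No member was among either, the smallest unadjusted p of a member being 0.162, for Cldn6 in limma's fit with the block (adjusted p = 0.930).

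Among the keratins the doxycycline means were close to the uninduced ones. Krt8 averaged 9804 ± 8445 with doxycycline and 10239 ± 9083 without (SD, n = 3 each), a log2 fold change of -0.01. The SD is large because it holds the differences between experiments. The 95% confidence interval was -2.37 to 2.35 without the block and -0.27 to 0.26 with it (limma, adjusted p = 1.00 without and 0.997 with it). Krt18 stood at -0.05 with a blocked interval of -0.35 to 0.25, and Krt19 at 0.02 with one of -0.44 to 0.48. The blocked intervals of Krt8, Krt18 and Krt19 thus each span less than 1 log2 unit. Krt7 stood at 0.26 with a blocked interval of -0.65 to 1.16, and its difference was -0.43 for A, 1.36 for B and -0.16 for C. The uninduced array of B was its lowest of the 6, and without both arrays of B the value was -0.30.

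On their brightest probe sets, none of the 4 junction genes, nor of the 4 keratins, differed in the same direction in all 3 experiments. A dimmer probe set of Krt8 was lower with doxycycline in each, by small amounts: -0.10 for A, -0.03 for B and -0.14 for C. Cdh1 averaged 1731 ± 1862 with doxycycline and 1934 ± 2246 without (SD, n = 3 each), a log2 fold change of -0.20 with a blocked interval of -0.72 to 0.31. Its difference was -0.24 for A, 0.36 for B and -0.72 for C. Epcam stood at 0.07 with a blocked interval of -0.31 to 0.45 on its brighter probe set, and Cldn7 at 0.04 with one of -0.45 to 0.54. The dimmer probe set of Epcam stood at 0.47 with a blocked interval of -0.27 to 1.21. Its difference was -0.39 for A, 0.75 for B and 1.06 for C. On the brightest probe sets Cldn6 had the largest log2 fold change of the 8 genes, 0.34 with a blocked interval of -0.17 to 0.86. The difference of Cldn6 was 0.91 for A, 0.14 for B and -0.02 for C. The A value rests on the uninduced array with the high 3′ to 5′ ratio, and the part of that in the value was not tested; with both arrays of A left out, Cldn6 stood at 0.06.

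**Figure D3:**
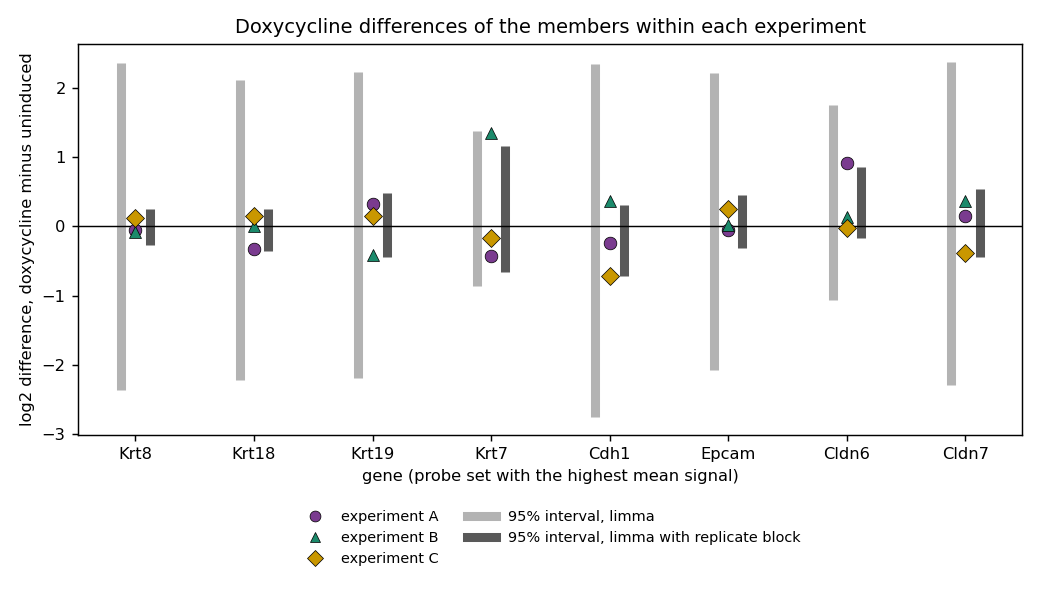
Log2 difference, doxycycline minus uninduced, of the 8 genes in experiments A, B and C (symbols), with the 95% confidence interval of limma's fit without (light bar) and with (dark bar) the replicate block. All intervals include 0, and the points of Krt8, Krt18 and Epcam lie within -0.32 and 0.25 in all 3 experiments.

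Within single experiments, where 1 doxycycline array stands against 1 uninduced array and no test is possible, few members differed by over 1 log2 unit. In A there were 0 of 11 probe sets, beside 11.2% of all tested probe sets. In B there was 1, Krt7 at 1.36, beside 4.27%, and in C 1, the dimmer probe set of Epcam at 1.06, beside 6.33%. As group means, the keratins stood at -0.12 for A, 0.22 for B and 0.06 for C, and the junction genes at 0.19, 0.22 and -0.22. Without Krt7 the keratins stood at -0.02, -0.16 and 0.14, so the sign in B turned with that gene. For comparison, the median over all tested probe sets was -0.04 for A, 0.01 for B and 0.02 for C. The keratin minus junction gap with doxycycline was -0.31 for A, -0.0036 for B and 0.28 for C, with a mean of -0.01 ± 0.30 (SD, n = 3).

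Other genes of the epithelial junction were read from lists written with earlier results of these arrays known. In these and the later lists, counts of an order stand beside the shares of all 12452 tested genes. Those are 5.53% for B above A above C and 4.13% for A above B above C. Some desmosome genes, whose products anchor keratin filaments, had the order of the keratins and others did not. Dsp, which encodes desmoplakin, the protein that links keratin filaments to the desmosome, had 3153, 5278 and 496 with doxycycline in A, B and C, against 1935, 5122 and 370.3 without. Its log2 differences were -1.07 for A minus B and 3.54 for B minus C. The desmosomal cadherin genes Dsg2 and Dsc2 stood at 3.44 and 3.06 for B minus C. In the list of 15 tested adherens junction and desmosome genes, 6 had the order B above A above C with no overlap (Ctnna1, Dsp, Dsg2, Dsc2, Cdh3 and Pkp2), and 1, Ppl, had A above B above C. Pkp3 stood at 0.73 and Perp at 0.39 for A minus B, and for Jup, which encodes plakoglobin, the arrays of A overlapped those of B and of C. The list's median was -0.22 for A minus B and 0.88 for B minus C. Ctnnb1, the catenin bound by E-cadherin, was alike in all experiments, with 18811 to 22353 with doxycycline and 18555 to 22794 without.

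Genes of epithelial polarity, splicing and surface showed both orders. Of 16 tested genes, 6 had A above B above C (Crb3, Esrp1, Ap1m2, Spint2, St14 and Prss8) and 2 had B above A above C (Pard6b and Patj). Esrp1, an epithelial splicing regulator, had 995, 354 and 98.9 with doxycycline in A, B and C, against 1654, 333 and 99.1 without. Ap1m2, a subunit of the adaptor that sorts proteins in epithelial cells, stood at 0.85 for A minus B and 2.47 for B minus C, and the protease gene Prss8 at 0.87 and 1.72. The list's median was 0.86 for A minus B and 1.30 for A minus C.

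The other claudins and tight junction genes were mixed. Of 14 tested genes, Cldn4 and Ocln, which encodes occludin, had the order of the junction members, beside 4.13% of all tested genes. Cgnl1, which encodes paracingulin, had that of the keratins, beside 5.53%. Cldn3 had 361, 12.2 and 207 with doxycycline in A, B and C, against 467, 68 and 258 without, so it was lowest in B, unlike Cldn6 and Cldn7. Cldn10 was highest in C, with 197 with doxycycline and 285 without. Tjp1, the scaffold of tight junctions in many cell types, had 4553 to 5390 with doxycycline and 4392 to 6081 without. Of 14 other keratins on the array 9 were too dim to be tested, among them Krt14, Krt15 and Krt17 of stratified epithelia. The 5 tested ones had a median B minus C difference of 0.08. By over 1 log2 unit without overlap, 1 of these 5 was above C in B, Krt80 at 1.33, and 0 were below. Krt6a ranged from 31.4 to 138 with doxycycline and from 45.6 to 59.1 without, Krt10 from 324 to 381 with and from 254 to 419.5 without, and Krt80 from 15.2 to 122 with and from 67.4 to 206 without.

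**Figure D4:**
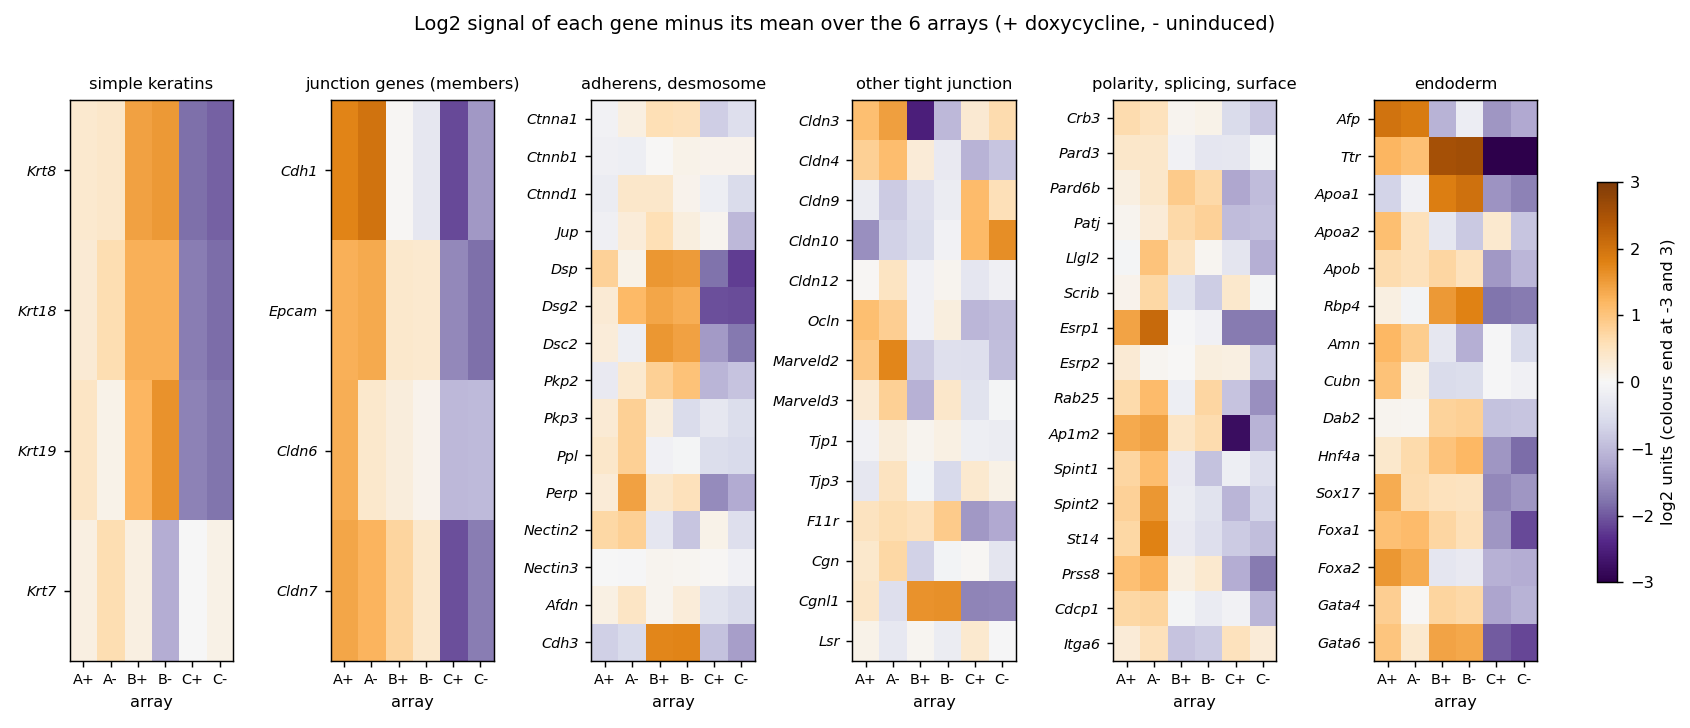
Log2 signal of each tested gene minus its mean over the 6 arrays, for the members and 4 further lists; columns are the arrays of A, B and C with (+) and without (-) doxycycline, and colours end at -3 and 3 log2 units. Dsp, Dsg2, Dsc2, Pkp2 and Cgnl1 are highest in B like Krt8, and Esrp1, Ap1m2 and Prss8 in A like Cdh1, while Cldn3 is lowest in B.

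Of 13 epithelial transcription factor genes on the array 8 were tested. Grhl2, an activator of Cdh1 in mouse epithelia, had 337, 239.8 and 193 with doxycycline in A, B and C, against 485, 245 and 158.5 without, which is the order A above B above C. Tfap2a, a factor of surface ectoderm and neural crest, had 164, 134 and 217 with doxycycline in A, B and C, against 1289, 119 and 163 without. Its highest value was on the uninduced array of A. Grhl3 ranged from 38.9 to 70.2 with doxycycline and from 81.1 to 161 without, and Tfap2c from 62.8 to 278 with and from 113 to 229.9 without. None of the tested genes in any of these lists passed limma's test for doxycycline.

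Markers of other cell types also differed between the experiments, some with the members and some against them. Visceral and definitive endoderm, which makes a simple epithelium with keratins and E-cadherin, was covered by 15 tested genes, none of them at 0. Their summed signal was 14669, 21510.1 and 2608 with doxycycline in A, B and C, against 12183, 22511 and 2399.6 without. The sum was highest in B, where Ttr had the highest signal of the list, but the list's median A minus B difference was -0.04, with 5 genes called higher in A and 3 lower by over 1 log2 unit without overlap. Of these genes 6 had B above A above C, among them Ttr, which encodes transthyretin, with 4214, 10701 and 159.7 with doxycycline, against 3858, 11110.3 and 91.2 without. The others were Apoa1, Rbp4, Dab2, Hnf4a and Gata6, with B minus C differences of 3.46 for Apoa1 and 3.39 for Rbp4. Another 4 had A above B above C, the order of the junction genes: Afp, Sox17, Foxa1 and Foxa2. For A minus B, Afp stood at 2.60, Amn at 1.75, Foxa2 at 1.74, Apoa2 at 1.38 and Cubn at 1.14, against -1.43 for Ttr, -2.33 for Apoa1 and -1.60 for Rbp4. The part of endoderm in the members' values was not tested.

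Of the 5 tested trophoblast genes, a list whose defining placental genes Tpbpa, Ascl2 and Esx1 were too dim to be tested, Hand1 had the order of the keratins and Gata3 that of the junction genes. The summed signal was 2218, 4195.5 and 592 with doxycycline in A, B and C, against 1882, 3865 and 770.3 without. Hand1 had the highest signal of the list in B, with 2469 with doxycycline and 1542 without. For B minus C, Plac1 stood at 3.47 and Cdx2 at 1.20, while Eomes was lowest in B and stood at -0.78. For surface ectoderm 4 of 7 genes were tested, with Trp63, Krt14 and Krt15 too dim, and the sum was 768, 831 and 480 with doxycycline in A, B and C, against 2595, 943 and 469.5 without. Perp, a desmosome gene also counted there, stood at 1.84 for B minus C.

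Mesenchymal genes are often low where epithelial genes are high, but their summed signal was not lowest where the keratins were highest. Over 14 genes it was 35048, 74583 and 30828 with doxycycline in A, B and C, against 29212, 74603 and 30314 without. Of these genes 5 had the order of the keratins, beside 5.53% of all tested genes: Fn1, Snai2, Twist2, Col1a1 and Pdgfra. Snai2, which encodes the Slug repressor, had 2239.8, 10110 and 205 with doxycycline in A, B and C, against 4515, 12139 and 542 without. Its probe set is of the kind that can cross-react with similar transcripts. Col1a1 and Col3a1 stood at 4.56 and 3.42 for B minus C and at -3.06 and -4.67 for A minus B. The brightest gene of the list in B was Vim, with 22845 with doxycycline and 21479 without. The list's median A minus B difference was -1.13. By over 1 log2 unit without overlap, 7 of the 14 genes were lower in A, where the junction genes were highest, than in B, and 0 higher. By the same margin 4 were above C in A and 1 below, and 8 were above C in B and 0 below. Within that margin Cdh2 was lowest in B, at -0.34 for B minus C, and Zeb2 and Twist1 stood at -0.25 and -0.23. The sum of 8 pluripotency genes was 4537, 1361 and 9948 with doxycycline in A, B and C, against 6391, 1862 and 9942 without, highest in C, where 7 of the 8 members, all but Krt7, were lowest. Most of the sum in C was Sox2, also a neural gene, with 6065 with doxycycline and 6163 without. Sox2, Dppa5a and Nanog stood at -3.97, -1.89 and -1.67 for B minus C. By over 1 log2 unit without overlap, 7 genes of the list were below C in B, but only 1 in A. Pou5f1 stood at 0.64 for A minus C. The 8 neural genes summed to 4576, 1113 and 6325 with doxycycline in A, B and C, against 6344, 1335 and 7428 without, with Otx2 at -5.79, Sox1 at -4.59 and Tubb3 at -3.77 for B minus C. The 10 endothelial and blood genes summed to 4523, 31538 and 2047 with doxycycline in A, B and C, against 1237, 41214 and 2471 without, with Hba-x, Hbb-bh1 and Kdr at 4.65, 4.55 and 3.85 for B minus C. The 6 cardiac genes summed to 1362, 2152 and 505 with doxycycline in A, B and C, against 1675, 3992 and 586 without, with Myl7, Tnnt2 and Actc1 at 4.52, 4.50 and 2.12 for B minus C. The part of these cell types in the members' values was not tested.

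The genes whose signals over the 6 arrays were most like the mean of the 4 keratins, by Pearson's correlation among 5612 genes with a range of at least 1 log2 unit, were Prdm6 at 0.998, Hand1 and Zc3hav1 at 0.997, Car4 at 0.997 and Tbx20 at 0.996. For the junction mean they were Ofd1 at 0.992, Pck2 at 0.990, Obsl1 and Cpm at 0.985 and Pkdcc at 0.982. A correlation over 0.95 was reached by 207 genes for the keratins and by 59 for the junction genes. Prdm6 had 1383, 3789 and 79.8 with doxycycline in A, B and C, against 1391, 3008 and 89.2 without. Cpm, which encodes a membrane carboxypeptidase, had 2778, 1367 and 128 with doxycycline in A, B and C, against 2383, 1280.1 and 255 without. With Krt7 left out of the keratin mean, a setting chosen after its values were seen, the closest genes were instead Cd248, Garre1, Tgfb2, Gad2 and Efna1, at 0.998 to 1.00, and 222 genes exceeded 0.95. The arrays form 3 pairs by experiment, so any gene with the order and spacing of 3 values reaches a high correlation.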

How the data were processed

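Total RNA of 6 embryoid body samples was labelled (4.3 µg each) and hybridized to Affymetrix mouse genome arrays, per the labels' protocols. The values are the authors' deposited MAS5 intensity, per the submitters' processing notes, with no version named there. The trimmed mean (2% off each end) of the deposited intensity was 500 on every array. No further normalization was applied. Tests used log2(signal + 18.8), an offset equal to the 20th percentile, so differences of dim probe sets are understated. Of 45101 probe sets, 64 controls and those with a mean under the 40th percentile were not tested, leaving 27022. Gene names come from the platform annotation in GEO, with symbols updated by Entrez ID through RefSeq (34741 of 34945 probe sets with 1 gene); 932 had several genes and 9160 none. A gene stands for its tested probe set with the highest mean, which gave 12452 genes. For Snai2, Ttr, Apoa1, Sox17, Ctnna1 and Spint2, among others, that probe set is of the kind that can cross-react with similar transcripts.

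Doxycycline and uninduced arrays (3 each) were tested by limma 3.58.1 (R 4.3.3) across all tested probe sets (moderated test with an intensity trend, two-sided, Benjamini-Hochberg). The script was tested on simulated data with independent noise and no differences between experiments. That check does not tell what size of change the fit can find in these arrays. The sample titles name replicas A, B and C and do not state that arrays with the same letter share an experiment. Deviations from the group means of arrays with the same letter correlated at 0.445, 0.671 and 0.660 in A, B and C. Reading each letter as an experiment is an assumption made here from the titles and these correlations. The fit with the replicate block rests on it and is an alternative. The series text calls the 3 experiments biological replicates, and precision is limited by the small number of arrays. Experiments were compared by description. The members and gene lists were chosen with earlier results of these data known. Named genes are all member probe sets, the 5 genes most like each group's mean, and up to 3 tested genes of each other list with the largest range, plus genes singled out for their order after their values were seen. Alternatives were the block, offsets of 1 and 50, no filter, quantile normalization, no trend, the mean over a gene's probe sets, and leaving out arrays or experiments.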

Additional observations from a re-analysis of the deposited data

How the results depend on the processing

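No setting gave a probe set that passed limma's test for doxycycline: the count was 0 in all 16 settings, the replicate block included, with 99 to 1065 probe sets at an unadjusted p under 0.05 and a smallest adjusted p of 0.930. The doxycycline values of the 8 genes kept their direction in 97 of 128 comparisons with an alternative and turned in 31, and none was called in any setting (smallest unadjusted p 0.109). Leaving out 1 array at a time unbalances the experiments and gave -0.98 to 0.90 for Krt8, -0.98 to 0.77 for Krt18, -0.86 to 0.84 for Krt19, -0.26 to 0.63 for Krt7, -1.14 to 0.81 for Cdh1, -0.82 to 0.87 for Epcam, -0.22 to 0.94 for Cldn6 and -0.78 to 1.09 for Cldn7. Without experiment A the direction turned for Krt8 (0.0165), Krt18 (0.0817), Krt19 (-0.13) and Cldn7 (-0.00897), without B for Krt8 (0.0308), Krt7 (-0.30) and Cldn7 (-0.12), and without C for Krt19 (-0.0403), Cdh1 (0.0607) and Epcam (-0.0184). Quantile normalization turned Cldn7 (-0.00671). The cause was not tested. The group means by experiment moved with the probe set chosen: the mean over a gene's probe sets gave 2.71 for A minus C and 1.56 for B minus C in the junction genes, and a keratin minus junction gap of -1.01 for A minus C and 0.69 for B minus C. Without Krt7, a setting added after seeing the data, the keratins stood at -1.01, 2.16 and 3.17 for A minus B, A minus C and B minus C, and the gap at -2.10, -0.76 and 1.35. Leaving out 1 array gave -0.64 to -0.42 for A minus B and 2.13 to 2.35 for B minus C in the keratins, and for doxycycline -0.61 to 0.71 in the keratins, -0.65 to 0.93 in the junction genes and -0.41 to 0.54 for the gap. With 3 arrays per group, the median half-width of the 95% interval over all probe sets was 0.81 log2 units without the block and 0.56 with it.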
